A study of Arabidopsis thaliana with 24 samples.

Results

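The salt response of the M6PR line of Arabidopsis thaliana was read from 4 of the 24 Affymetrix ATH1 leaf arrays of the series. It is the difference between 2 arrays of M6PR leaves given 100 mM NaCl (M6PR_100mM) and 2 arrays of M6PR leaves given 0 mM NaCl (M6PR_0mM), over all 22746 probe sets that are not array controls. M6PR plants are described as overexpressing a gene for mannose-6-phosphate reductase in the Col-0 background; the gene is from celery. Both groups carry the transgene. The same pair of salt levels was available for 5 other genotypes: the wild types Col, Colgl (a glabrous Columbia) and Ws, and the transgenic lines CBF3 (Ws background) and SOS1 (Colgl background). All leaves were collected 20 days after sowing. Salted plants had received NaCl in half-strength Hoagland solution from day 14, raised by 50 mM every 2 days to 100 mM, so that salt had been given for 6 days. Days were short, with 10 h light at 23 °C and 14 h dark at 18 °C. Each sample pooled leaves of at least 15 seedlings, and there were 2 replicate pots per genotype and salt level. The labels name neither the promoter of the transgene nor how many independent insertions were used, and 1 line stands for the genotype.

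Mannitol is a sugar alcohol that celery and some other plants make in leaves, store and move in the phloem. Mannose-6-phosphate reductase carries out a step of its synthesis, which Arabidopsis does not normally use to accumulate mannitol. Mannitol acts as a compatible osmolyte and as a scavenger of hydroxyl radicals, and plants that make it have been studied for salt tolerance. In leaves, salt is known to bring water deficit, sodium load and abscisic acid signalling, with induction of protective late embryogenesis abundant proteins and changes in growth and carbon use. In whole-leaf RNA, fewer cells of a type and less RNA per cell cannot be told apart.

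Values are log2 expression values. No probe set was named for the celery gene, so the labels were not checked by the transgene. The sample descriptions of the M6PR plants name Ws while their characteristics give Col-0. At all 19 probe sets that lay at least 3 log2 units apart between the Ws wild type and both Columbia wild types, all 4 M6PR arrays were nearer to Col (19 of 19 in each). Leaf mesophyll markers gave high signals in every M6PR array, with RCA, the activase of the carbon-fixing enzyme Rubisco, at 13.70 and 13.63 in M6PR_100mM and 13.79 and 13.74 in M6PR_0mM. The root marker EXPA7, an expansin of root hairs, was low at 5.03 and 4.45 in M6PR_100mM and at 4.51 and 4.53 in M6PR_0mM. PYK10, a beta-glucosidase best known from roots, stood at 4.85 and 6.61 in M6PR_100mM and at 4.46 and 3.84 in M6PR_0mM, a change that did not pass (adjusted p = 0.55). The 2 salted M6PR arrays resembled each other less than the 2 unsalted ones. The SD of the difference between replicates over probe sets was 0.52 in M6PR_100mM, the third highest of the 12 groups, and 0.28 in M6PR_0mM. Replicate 1 of M6PR_100mM had the lowest median value of the 4 M6PR arrays, 5.81. It also had the narrowest interquartile range, 3.36, where the other 3 arrays had ranges of 3.54 to 3.67. The 3' minus 5' difference of actin, a sign of RNA quality, was 3.11 and 2.73 in M6PR_100mM and 2.42 and 2.57 in M6PR_0mM. That of GAPDH overlapped, with 0.75 and 0.95 in M6PR_100mM and 0.66 and 0.80 in M6PR_0mM. The part of RNA quality in the salt changes was not tested.

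In a limma fit with 1 mean per group over all 24 arrays, 123 of 22746 probe sets passed a Benjamini-Hochberg adjusted p of 0.05 (0.541%), 37 higher with salt (0.163%) and 86 lower (0.378%). The higher ones changed by 0.61 to 3.49 log2 units (median 1.41) and the lower ones by -0.54 to -3.57 (median -1.12). The 2 groups did not overlap at any of the 123, as was also so at 36.2% of all probe sets (16% higher with salt and 20.2% lower). The median change of all probe sets was 0.02. At an unadjusted p of 0.05, 2321 probe sets passed (10.2%). Of the 123, 69 stood for a single named gene, 17 higher and 52 lower. The split between higher and lower depended on the arrays and the scaling: it was 34 higher and 149 lower after each array was centred on its own median, 13 and 13 without replicate 1 of M6PR_100mM, and 165 and 210 without replicate 2 of it.

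The count rested on individual arrays. It was 26 without replicate 1 of M6PR_100mM and 375 without replicate 2 of that group. It was 11 without replicate 1 of M6PR_0mM and 20 without replicate 2. The other 3 M6PR arrays and all 20 arrays of other genotypes stayed in each of these fits, and the lone array of a group was assumed to vary like the other groups. Fitted on the 4 M6PR arrays alone, 0 probe sets passed in limma, with 1960 at an unadjusted p of 0.05. P-values measure the spread between pots, pooled over all groups.

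Among single-gene probe sets, AT1G04770 had the largest rise. It stood at 10.39 and 9.54 in M6PR_100mM and at 6.25 and 7.24 in M6PR_0mM, a log2 change of 3.22 ± 0.57 (SE of the fit; 9.30-fold, adjusted p = 0.019). Both salted arrays lay more than 2 units above both unsalted arrays. ORA47, an ethylene response factor type of transcription factor that promotes jasmonate synthesis, had 7.99 and 8.2 in M6PR_100mM and 5.77 and 5.20 in M6PR_0mM (2.61 ± 0.42, 6.10-fold, adjusted p = 0.011). AT2G37870 had 7.67 and 7.85 in M6PR_100mM and 5.24 and 5.26 in M6PR_0mM (2.51 ± 0.53, adjusted p = 0.048). Its replicates differed by less than 0.2 units within each group. AT1G60590 reached 7.78 and 6.80 in M6PR_100mM, against 5.15 and 5.26 in M6PR_0mM (2.09 ± 0.39, adjusted p = 0.025), and the salted replicates of this gene differed by about 1 unit. Replicate 1 was the higher one.

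COR15A, a cold- and abscisic acid-induced protein that protects membranes of the chloroplast, gave high signals at both salt levels. It had 12.34 and 12.17 in M6PR_100mM and 10.66 and 11.26 in M6PR_0mM (1.3 ± 0.19, 2.46-fold, adjusted p = 0.0055). AT1G68570, whose listed synonym is NPF3.1 of the NRT1/PTR transporter family, had 9.94 and 9.33 in M6PR_100mM and 7.98 and 7.41 in M6PR_0mM (1.94 ± 0.39, 3.83-fold, adjusted p = 0.039). BETA-VPE, a vacuolar processing enzyme that cleaves storage proteins in seeds, had 7.73 and 7.54 in M6PR_100mM and 6.55 and 6.80 in M6PR_0mM (0.96 ± 0.18, adjusted p = 0.03). In all 3 genes replicate 1 was the higher of the salted pair. The other 5 of the 12, AT5G05250, AT3G53980, AT4G01460, AT2G16890 and AT5G38890, rose by 1.96, 1.38, 1.35, 1.13 and 1.11 log2 units.

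Among single-gene probe sets, AT3G23550 had the largest fall. It fell to 5.48 and 6.26 in M6PR_100mM, against 8.15 and 9.19 in M6PR_0mM (-2.80 ± 0.41, 6.97-fold lower, adjusted p = 0.0063). AT3G16530 fell to 7.16 and 7.98 in M6PR_100mM, against 10.21 and 10.35 in M6PR_0mM (-2.71 ± 0.50, adjusted p = 0.024). In both genes replicate 1 was the lower of the salted pair. AT2G44670 had 8.01 and 8.54 in M6PR_100mM and 10.21 and 9.82 in M6PR_0mM (-1.74 ± 0.21, 3.34-fold lower), with the smallest adjusted p of the 24 named genes, 0.0013.

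MCCA encodes a subunit of 3-methylcrotonyl-CoA carboxylase, a mitochondrial enzyme of leucine breakdown whose transcript is known to accumulate when sugar runs short. It had 7.07 and 7.37 in M6PR_100mM and 8.93 and 8.79 in M6PR_0mM (-1.63 ± 0.25, 3.10-fold lower, adjusted p = 0.0072). MCCB, the other subunit of that enzyme, had a change of -0.03 (adjusted p = 0.98). ATL8, a RING finger protein of a ubiquitin ligase family, had 5.12 and 5.73 in M6PR_100mM and 7.02 and 6.65 in M6PR_0mM (-1.41 ± 0.21, 2.65-fold lower, adjusted p = 0.0065). AT5G58090 had 7.17 and 8.01 in M6PR_100mM and 9.05 and 9.11 in M6PR_0mM (-1.49 ± 0.21, adjusted p = 0.0047). In MCCA, ATL8 and AT5G58090 replicate 1 was the lower of the salted pair. The other 6 of the 12 largest falls, AT5G54720, AT5G25440, AT5G27920, AT4G01700, AT5G62865 and AT4G25940, had log2 changes of -1.97, -1.73, -1.60, -1.45, -1.41 and -1.41.

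**Figure D1:**
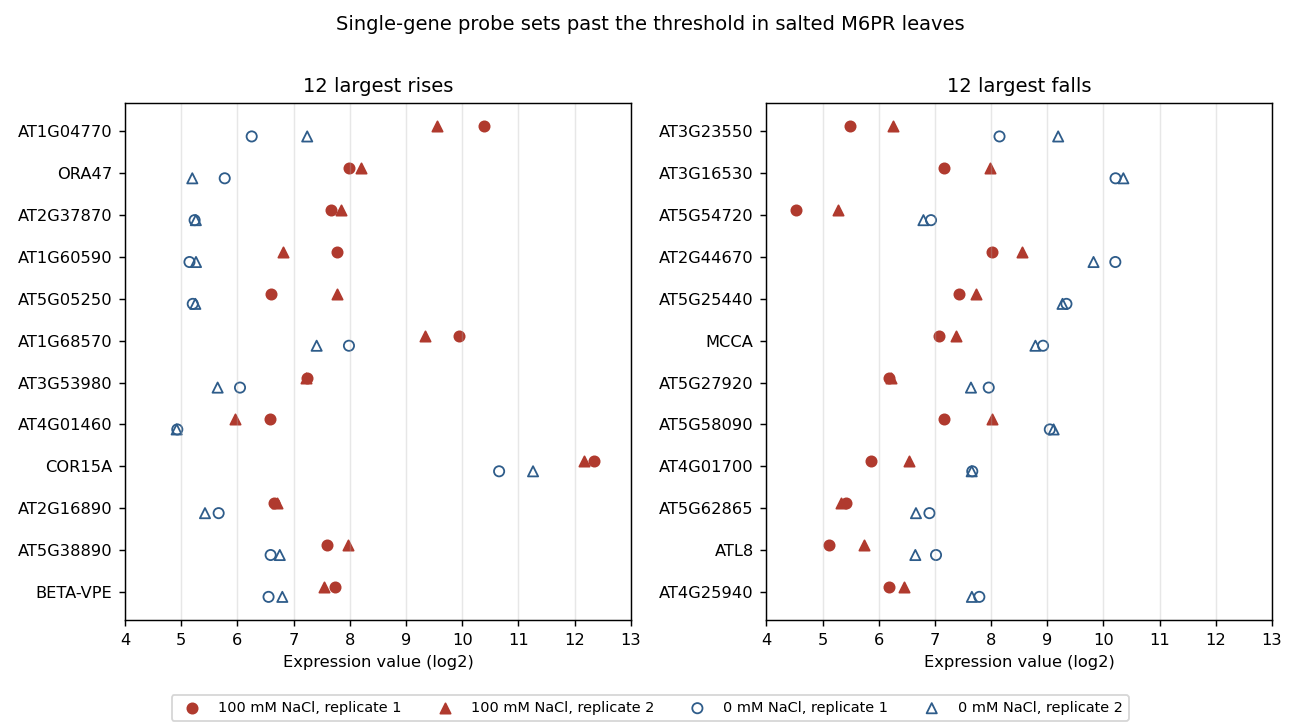
Log2 expression values (horizontal axis) of the 12 largest rises and 12 largest falls in the 2 salted arrays (filled, upper row of each gene) and the 2 unsalted arrays (open, lower row) of M6PR, with circles for replicate 1 and triangles for replicate 2. Genes were chosen with their groups apart; the changes reach 3.22 for AT1G04770 and -2.80 for AT3G23550.

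Leaving out 1 of the 4 M6PR arrays cannot turn the sign of the 24 named genes, which were chosen with their groups apart, but it ended many calls. Of the 24, 5 passed without replicate 1 of M6PR_100mM, 20 without replicate 2 of it, 2 without replicate 1 of M6PR_0mM and 3 without replicate 2 of it. AT2G44670 passed in all 4 of these fits (highest adjusted p 0.045). COR15A passed in 2 of them, with changes of 1.0 to 1.60 and adjusted p of 0.0048 to 0.083. AT2G37870, AT2G16890 and AT5G27920 passed in 0 of them, with AT2G37870 at adjusted p of 0.083 to 0.34.

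Of 5 measured genes of the CBF regulon (targets of the CBF cold-response factors), COR15A rose and 4 did not pass, and 4 of the 5 changes were above 0. Their median change was 0.84, beside 0.02 for all probe sets. LTI30, a dehydrin, had 8.86 and 10.19 in M6PR_100mM and 7.49 and 8.24 in M6PR_0mM (1.66 ± 0.44, adjusted p = 0.12). COR15B, the close relative of COR15A, had 10.16 and 11.20 in M6PR_100mM and 9.01 and 10.67 in M6PR_0mM (0.84 ± 0.40, adjusted p = 0.49), so its 2 groups overlapped. COR15A and COR15B are near neighbours in sequence, and how far their probes cross-hybridise was not tested. STZ, a zinc finger repressor of stress and cold responses, had a change of 0.71 ± 0.62 (adjusted p = 0.82).

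The abscisic acid and dehydration list had 8 measured genes, of which COR15A rose and 7 did not pass (median change 1.07). AT3G02480 had the largest change of the list, with 7.39 and 8.96 in M6PR_100mM and 3.77 and 4.95 in M6PR_0mM. Its groups lay far apart, but the error was wide (3.81 ± 1.1, adjusted p = 0.17). Few of the genes written for this list were measured by a single-gene probe set (8 of 71 entries), and the raffinose, aquaporin and MYB lists had 0.

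ORA47 was the only member to pass among 7 measured jasmonate genes (median change 0.18) and among 11 genes of touch and rapid stress (median 0.26). PDF1.2, an antimicrobial defensin induced by jasmonate and ethylene, differed widely between pots, at 10.00 and 6.83 in M6PR_100mM and 11.71 and 8.12 in M6PR_0mM (-1.50 ± 0.98, adjusted p = 0.70). Replicate 1 was the higher one at both salt levels. WRKY53, a transcription factor of senescence and defence, had 6.95 and 7.10 in M6PR_100mM and 5.65 and 5.80 in M6PR_0mM (1.3 ± 0.42, adjusted p = 0.23). WRKY22, a factor of immune and dark-senescence signalling, ran the other way with 5.86 and 6.80 in M6PR_100mM and 7.61 and 7.63 in M6PR_0mM (-1.28 ± 0.33, adjusted p = 0.11). 0 of 7 WRKY factors passed.

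Of 9 measured genes of sugar starvation and darkness, MCCA fell and 8 did not pass, with a median change of -0.32 and 7 of 9 below 0. AKINBETA1, a regulatory subunit of the energy-sensing kinase SnRK1, had 7.76 and 8.40 in M6PR_100mM and 9.78 and 9.38 in M6PR_0mM (-1.50 ± 0.47, adjusted p = 0.21). ATG8E, a protein of the autophagosome membrane from the senescence list, had 8.07 and 7.94 in M6PR_100mM and 9.82 and 9.52 in M6PR_0mM (-1.66 ± 0.58, adjusted p = 0.28). Neither pair of groups overlapped. APL3, a large subunit of the starch-building enzyme ADP-glucose pyrophosphorylase, had 8.75 and 8.11 in M6PR_100mM and 7.27 and 7.29 in M6PR_0mM (1.15 ± 0.35, adjusted p = 0.20), and 0 of 6 starch genes passed.

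0 of 7 measured flavonoid and anthocyanin genes passed, though all 7 had changes above 0 (median 1.04). UF3GT, a glycosyltransferase of anthocyanins, had 9.18 and 7.71 in M6PR_100mM and 7.0 and 6.53 in M6PR_0mM (1.68 ± 0.47, adjusted p = 0.15). UGT78D2, a flavonoid 3-O-glucosyltransferase, had 9.32 and 7.99 in M6PR_100mM and 7.97 and 7.26 in M6PR_0mM (1.04 ± 0.36, adjusted p = 0.28). The 2 salted replicates differed here: the list's median lay 1.71 above the M6PR_0mM mean in replicate 1 and 0.60 above it in replicate 2. Without replicate 2 of M6PR_100mM, the changes were 2.42 for UF3GT and 1.71 for UGT78D2, which then rest on the higher salted array alone. Replicate 2, at 7.71 and 7.99, lay nearer to the M6PR_0mM means of 6.765 and 7.611. On the wider list of UDP-glycosyltransferases, enzymes that add sugars to small molecules, 0 of 51 measured genes passed. Of these, 43 had changes above 0 (52.8% of all probe sets did), with a median of 0.18. The list need not hold the whole family, so members outside it may be among the probe sets that passed.

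Of 13 measured genes on the growth and cell wall list (45 entries) 0 passed, with 7 above 0 and 6 below. Wall genes outside the list may be among the probe sets that passed. The 2 groups did not overlap in 12 of the 13, beside 36.2% of all probe sets. All lists were chosen with earlier results of these data known, so such shares may be partly built in. EXPA8, an expansin that loosens walls, had 7.60 and 7.04 in M6PR_100mM and 5.73 and 5.95 in M6PR_0mM (1.47 ± 0.46, adjusted p = 0.21). TBL26, of a family of wall polysaccharide acetyltransferases, had 10.75 and 9.62 in M6PR_100mM and 8.86 and 8.48 in M6PR_0mM (1.52 ± 0.45, adjusted p = 0.18). XTH18, a xyloglucan-modifying enzyme, had 5.14 and 6.98 in M6PR_100mM and 7.54 and 7.45 in M6PR_0mM (-1.43 ± 0.57, adjusted p = 0.37). Its relative XTH19 had 7.43 and 8.51 in M6PR_100mM and 6.71 and 5.73 in M6PR_0mM (1.75 ± 0.61, adjusted p = 0.28). How far probes of close relatives in these families cross-hybridise was not tested.

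0 of 11 nuclear photosynthesis genes passed, 10 lay below 0, and the median was -0.10. LHCB4.3, a minor antenna protein of photosystem II, had 11.20 and 10.92 in M6PR_100mM and 11.58 and 11.52 in M6PR_0mM (-0.49 ± 0.18, adjusted p = 0.33). Of 69 plastid-encoded genes 0 passed, yet 68 lay below 0 (median -0.32), and in 30 of them the salted arrays lay below both unsalted ones, beside 20.2% of all probe sets. The list's median lay 0.46 below the M6PR_0mM mean in replicate 1 and 0.22 below it in replicate 2. These genes share polycistronic transcripts and one array each, so their agreement in sign is not 69 independent observations. The array control for 25S ribosomal RNA stood at 8.56 and 7.21 in M6PR_100mM and 9.54 and 8.69 in M6PR_0mM, and the part of RNA make-up in the plastid values was not tested.

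0 of 4 measured genes of mannose and ascorbate metabolism passed. GME, the GDP-mannose epimerase of ascorbate synthesis, had 10.49 and 10.47 in M6PR_100mM and 10.31 and 10.14 in M6PR_0mM (0.26 ± 0.15, adjusted p = 0.63). PMM, the phosphomannomutase that leads mannose phosphate towards GDP-mannose, had 9.74 and 10.11 in M6PR_100mM and 9.94 and 9.88 in M6PR_0mM (0.02 ± 0.18, adjusted p = 0.99). VTC4 and GLDH, later enzymes of ascorbate synthesis, had changes of 0.38 and 0.07. Of the sodium, potassium and osmotic transport list 4 genes were measured and 0 passed. CHX20, a cation/proton exchanger of guard cells, had a change of 0.06 ± 0.29, and VHA-A3, a subunit of the vacuolar proton pump, one of -0.04 ± 0.23.

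In the remaining lists with at least 3 measured genes, 0 measured members passed. The lists cover only part of a family or process. Of 37 entries of the sulfur and iron list, for example, 3 were measured by a single-gene probe set. Genes outside a list, also those that passed, are not in its count. Their median changes were -0.10 for 13 glutathione S-transferases, 0.01 for 8 redox and antioxidant genes, -0.06 for 12 auxin genes, 0.05 for 8 calmodulin-like genes, 0.06 for 3 genes of ethylene and gibberellin, 0.11 for 5 of salicylate and defence and 0.04 for 3 of sulfur and iron. They were -0.02 for 10 xyloglucan endotransglucosylases, -0.23 for 8 senescence genes, 0.09 for 3 markers of guard cells and the stomatal lineage, 0.22 for 3 root markers and -0.10 for 4 markers of leaf mesophyll. The 4 measured lipid transfer genes, of 17 entries written for that list, had the lowest median, -1.09, and 1 of them lay above 0. Probe sets with no gene or several genes in the annotation stood in no list, and genes not matched by a list's entries were not counted. Other members of the family may therefore be missing, also among the probe sets that rose and passed. The median of these 4 genes does not stand for the family. AT4G12490 led the falls with 7.42 and 8.03 in M6PR_100mM and 9.87 and 8.85 in M6PR_0mM (-1.63 ± 0.39, adjusted p = 0.081). After centring of each array, which raised the lower calls from 86 to 149, AT4G12490 passed with a change of -1.64. Such gains were rare: of 1239 alternative values of named genes, 4 gained a call and 106 lost one.

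**Figure D2:**
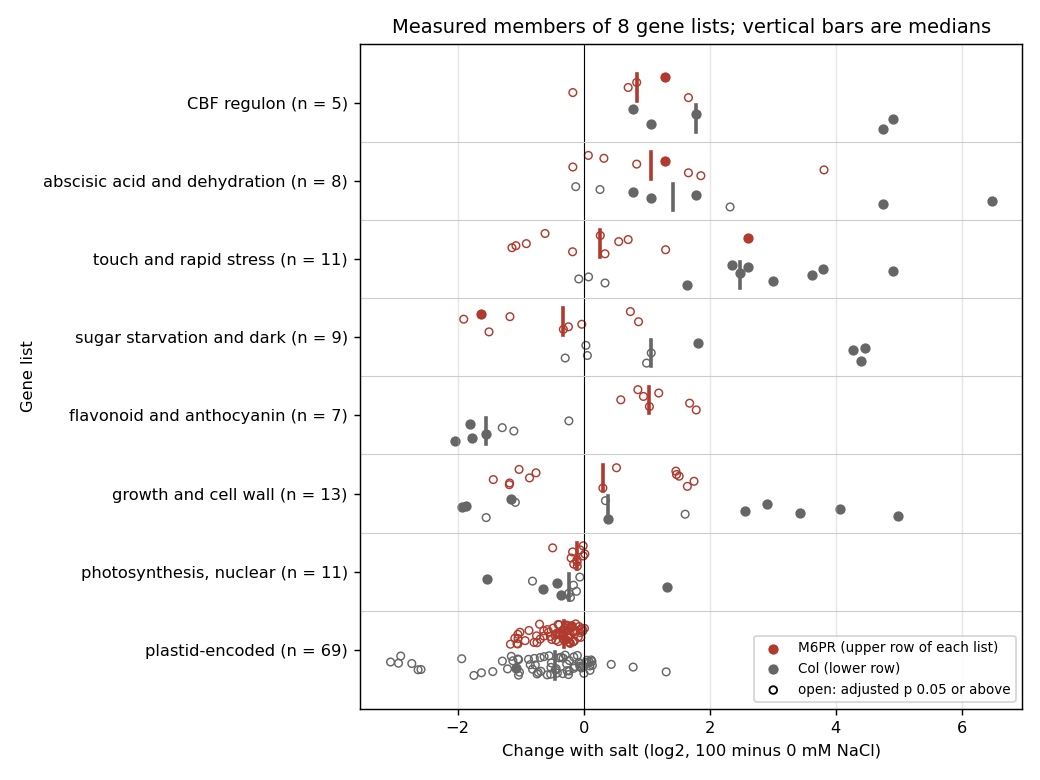
Log2 change with salt (horizontal axis) of each measured member of 8 gene lists in M6PR (upper row, red) and Col (lower row, grey); filled points have an adjusted p under 0.05 in that genotype and vertical bars are medians. The flavonoid and anthocyanin genes have a median of 1.04 in M6PR and -1.55 in Col.

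With salt, 123 probe sets passed in M6PR and 4764 in Col, the wild type of the same background (20.9%). Replicate 1 of Col_100mM and replicate 1 of Ws_100mM stood apart from the other 22 arrays. They had the lowest signals for the bacterial control dap (7.11 and 6.73, the others 9.50 to 11.25) and for 25S ribosomal RNA (4.52 and 4.98, the others 6.58 to 10.36), and the highest 3' minus 5' difference of actin (3.84 in both, the others 2.15 to 3.15), a sign of RNA quality. Without these 2 arrays, a setting chosen after seeing the data, 1731 passed in Col and 278 in Ws, and their part in the counts with Col and Ws was not tested further. With all arrays the number was 30 in Colgl (0.132%), 1072 in Ws (4.71%), 2 in CBF3 (0.00879%) and 0 in SOS1 (0%, with 1694 at an unadjusted p of 0.05 in limma). Across the 22746 probe sets, the log2 change in M6PR had a Pearson correlation of 0.03 with that in Col, -0.02 with Colgl, 0.12 with Ws, 0.13 with CBF3 and 0.02 with SOS1. These pairs share no array, and probe sets are not independent replicates. Of the 123 probe sets, 41 also passed in the same direction in Col, 33.3% of the M6PR calls and 0.861% of the Col calls, and 12 passed in the opposite direction. In Ws 25 passed in the same direction, 20.3% of the M6PR calls and 2.33% of the Ws calls, and 3 in the opposite one. Without the 2 arrays that stood apart 31 passed in the same direction in Col and 12 in Ws, with 5 and 0 in the opposite one. The 37 probe sets that rose in M6PR had a median change of 0.44 in Col, and the 86 that fell had a median of -0.10 there, close to the -0.12 of all probe sets in Col.

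**Figure D3:**
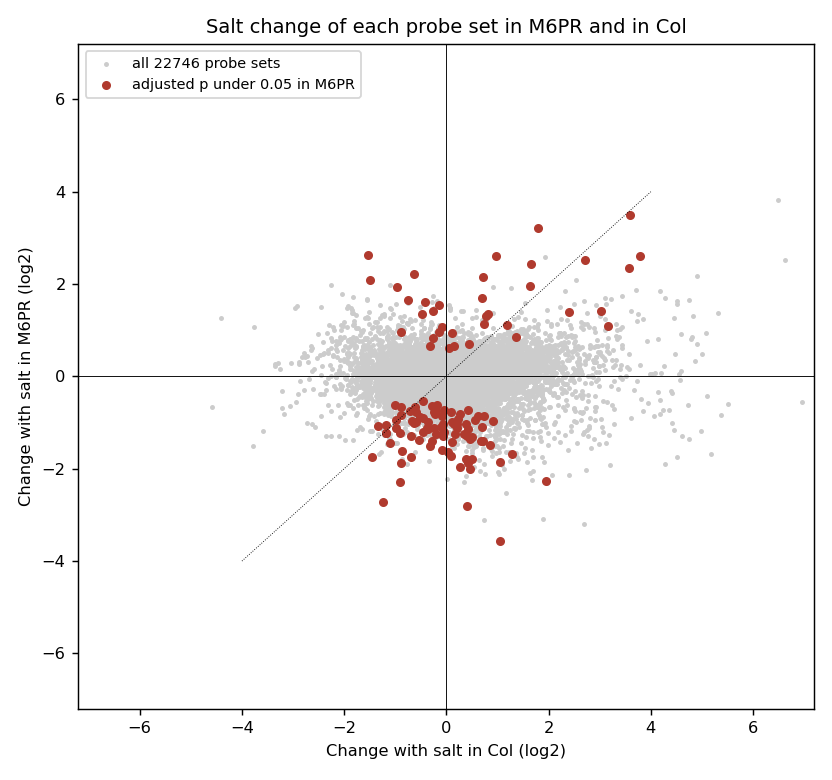
Log2 change with salt of each probe set in M6PR (vertical axis) against Col (horizontal axis), with the 123 that passed in M6PR in red and equal change as a dotted line. The cloud runs along the Col axis with a correlation of 0.03, and the 86 lower ones lie on both sides of 0 in Col.

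AT2G37870 had changes of 2.51 in M6PR, 2.71 in Col, 2.70 in Colgl, 3.65 in Ws, 2.41 in CBF3 and 1.99 in SOS1, above 0 in all 6 genotypes. It passed in M6PR, Col and Ws. COR15A had changes of 1.3 in M6PR, 0.78 in Col, 0.11 in Colgl, 1.55 in Ws, -0.06 in CBF3 and 0.60 in SOS1. Its difference from Col was 0.52 ± 0.26 (adjusted p = 0.25). ORA47 rose by 2.61 in M6PR and 3.79 in Col, a difference of -1.18 ± 0.60 (adjusted p = 0.25), and had changes of 1.91 in Ws, -0.12 in Colgl and -1.66 in SOS1.

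**Figure D4:**
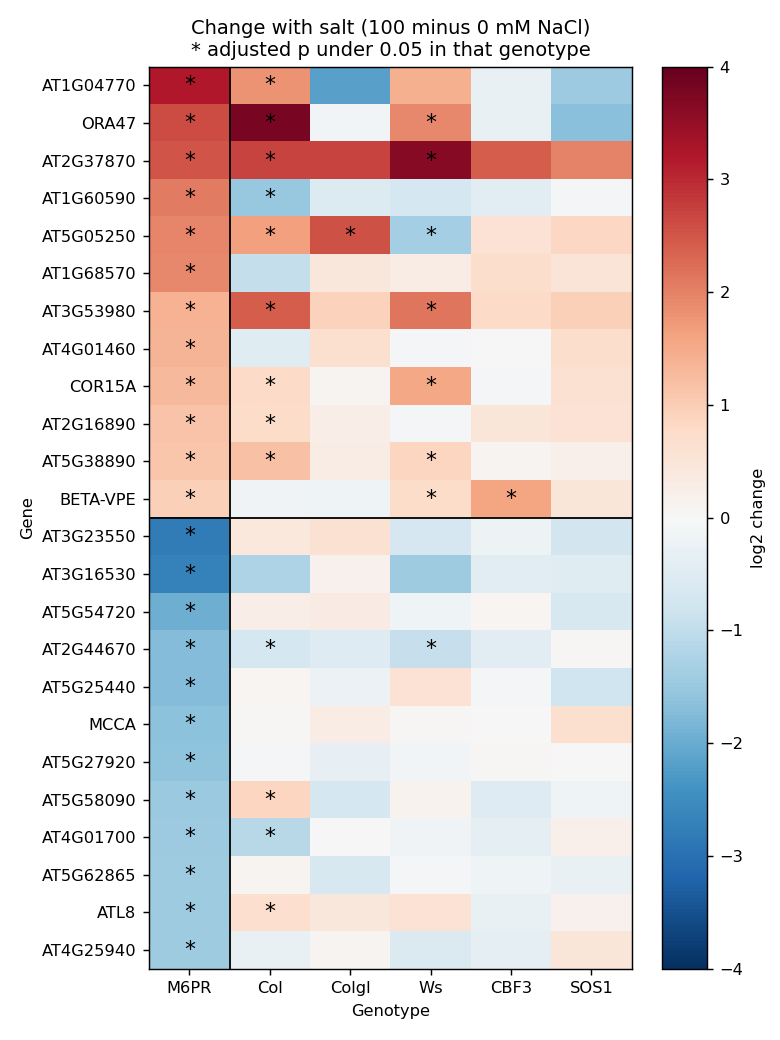
Log2 change with salt (colour) of the 24 named genes (rows, rises above the line and falls below it) in M6PR and the 5 other genotypes (columns); a star marks an adjusted p under 0.05 in that genotype. AT2G37870 is above 0 in all 6 columns, while MCCA is at -1.63 in M6PR and between -0.02 and 0.65 elsewhere.

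Whether the salt response of M6PR differs from that of Col was tested directly, as the M6PR change minus the Col change in the same fit. This difference passed at 1382 probe sets (6.08%), 742 above 0 (3.26%) and 640 below (2.81%). This count, too, rested on individual arrays. It was 367 without replicate 1 of Col_100mM and replicate 1 of Ws_100mM, the 2 arrays with low dap and 25S signals and a high actin difference. It was 150 without replicate 1 of M6PR_100mM and 3860 without replicate 2, and 627 and 208 without replicate 1 and replicate 2 of M6PR_0mM. The median difference over all probe sets was 0.10, and 0.26 after each array was centred.

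Each of the 5 genes with the smallest p for that difference among single-gene probe sets passed in Col, and AT5G58090 also passed in M6PR. WRKY22 had changes of -1.28 in M6PR and 2.77 in Col, a difference of -4.05 ± 0.46 (adjusted p = 0.0015). AT2G16660, at 11.96 and 12.42 in M6PR_100mM and 12.29 and 12.44 in M6PR_0mM, had a change of -0.17 in M6PR and rose by 2.17 in Col, a difference of -2.34 ± 0.30 (adjusted p = 0.0027). AT1G32920 had a change of 0.48 in M6PR and rose by 4.47 in Col (-3.99 ± 0.53, adjusted p = 0.004). AT5G58090 fell by 1.49 in M6PR and rose by 0.86 in Col (-2.35 ± 0.29, adjusted p = 0.0026). AT3G15310, a pseudogene in the RefSeq annotation with values of 3.53 and 3.48 in M6PR_100mM and 3.32 and 3.43 in M6PR_0mM, gave low signals in M6PR. It had a change of 0.13 in M6PR and of -1.53 in Col (1.66 ± 0.18, adjusted p = 0.0011).

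The gene lists were chosen with earlier results of these data known, so a share above that of all probe sets may be partly built in. Of the 7 flavonoid and anthocyanin genes 4 had a difference from Col above 0 that passed, beside 3.26% of all probe sets. Among them were UF3GT at 3.23 (adjusted p = 0.014) and UGT78D2 at 2.81 (adjusted p = 0.009). In Col their changes were -1.55 and -1.76, and both passed. That count of 4 was 1 without the 2 arrays low in dap, 1 without replicate 1 of M6PR_100mM, 5 without replicate 2 of it, 5 without replicate 1 of M6PR_0mM and 0 without replicate 2 of it. Of the 5 CBF regulon genes 2 passed below 0, beside 2.81% of all probe sets, LTI30 with 1.66 in M6PR and 4.75 in Col (adjusted p = 0.013) and STZ with 0.71 in M6PR and 4.90 in Col (adjusted p = 0.014). Of the 9 sugar starvation genes 5 passed below 0, with AT3G15630 at -1.90 in M6PR and 4.27 in Col (adjusted p = 0.01) and MCCA at -1.63 in M6PR and 0.04 in Col (adjusted p = 0.014). Both of these last counts were 0 without replicate 1 of M6PR_100mM, and without the 2 arrays low in dap they were 3 and 2. Without replicate 2 of M6PR_0mM they were 0 and 1, and without replicate 1 of that group 3 and 2.

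Other lists also held members whose difference from Col passed, beside 3.26% of all probe sets above 0 and 2.81% below. Lists share genes: UF3GT and UGT78D2 count among the flavonoid genes and again among the UDP-glycosyltransferases. Leaving out an array also moved the count over all probe sets, as given above. The list counts below cannot be read apart from that. Of 13 growth and cell wall genes 5 passed above 0 and 4 below, with EXPA8 at 1.47 in M6PR and -1.86 in Col and XTH18 at -1.43 in M6PR and 2.56 in Col. Without replicate 1 of M6PR_100mM these counts were 0 and 0, without replicate 2 of M6PR_0mM 1 and 0, without replicate 1 of that group 3 and 2, and without the 2 arrays low in dap 2 and 1. Of 51 UDP-glycosyltransferases 8 passed above 0 and 1 below; 2 passed above 0 without replicate 1 of M6PR_100mM, 17 without replicate 2 of it, 1 without replicate 2 of M6PR_0mM and 2 without the arrays low in dap. Of 4 lipid transfer genes 3 passed below 0, and 0 without replicate 1 of M6PR_100mM and 1 without either M6PR_0mM array. Of 11 touch and rapid stress genes 4 passed below 0; this was 0 without replicate 1 of M6PR_100mM, 7 without replicate 2 of it, 2 and 1 without replicate 1 and replicate 2 of M6PR_0mM, and 1 without the arrays low in dap. In the remaining lists at most 2 members passed in a direction, and in 9 of the 27 lists with at least 3 measured genes 0 passed.

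Set against the mean salt change of the 3 wild types, the M6PR change differed at 313 probe sets (1.38%), 126 above 0 (0.554%) and 187 below (0.822%). Against the mean of all 5 other genotypes it differed at 75 (0.33%), 19 above 0 (0.0835%) and 56 below (0.246%). ATL8 had the smallest p among single-gene probe sets in both comparisons, with differences of -1.97 (adjusted p = 0.0055) and -1.72 (adjusted p = 0.0092). Its change was -1.41 in M6PR, 0.67 in Col, 0.44 in Colgl, 0.58 in Ws, -0.30 in CBF3 and 0.19 in SOS1. AT1G60590 rose by 2.09 in M6PR and had changes of -1.50 in Col, -0.55 in Colgl, -0.70 in Ws, -0.43 in CBF3 and -0.08 in SOS1. Its differences were 3.0 from the wild types (adjusted p = 0.012) and 2.74 from the 5 other genotypes (adjusted p = 0.017). MCCA differed by -1.75 from the wild types (adjusted p = 0.015) and by -1.83 from all 5 (adjusted p = 0.013).

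Other genes with the smallest p among single-gene probe sets were AT1G04200 and AT5G59350 against the wild types. Against all 5 genotypes they were AT1G51790 and AT2G45010. AT1G04200 fell by 0.86 in M6PR and differed by -1.24 from the wild types (adjusted p = 0.0087). AT5G59350 had 7.60 and 6.64 in M6PR_100mM and 5.82 and 5.80 in M6PR_0mM (1.31 ± 0.28, adjusted p = 0.056) and differed by 2.16 (adjusted p = 0.013). AT1G51790 had close replicates, with 5.98 and 5.89 in M6PR_100mM and 7.13 and 7.33 in M6PR_0mM, a change of -1.29 ± 0.13 (adjusted p = 0.00063). It differed by -1.03 from the mean of all 5 (adjusted p = 0.01), and AT2G45010 by -0.72 (adjusted p = 0.017). Without replicate 1 of M6PR_100mM 0 probe sets passed in either comparison (1632 and 1264 at an unadjusted p of 0.05 in limma), and without replicate 2 of it 1923 and 901 passed. The counts were 14 and 0 without replicate 1 of M6PR_0mM (1933 at an unadjusted p of 0.05 against all 5 genotypes) and 14 and 6 without replicate 2 of it.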

How the data were processed

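RNA of pooled leaves was hybridised to Affymetrix ATH1 arrays. Per the submitters' processing notes, the authors used the tools GCOS and RMA, of unstated version. Values deposited on the log2 scale, as their range of 2.9 to 14.33 shows, were not transformed again. RMA normalizes arrays together, so a shift shared by most probe sets would be reduced. Differences between arrays remained, with medians of 5.77 to 6.09 and interquartile ranges of 3.05 to 3.80 over the 24 arrays. Of 22810 probe sets, 64 controls were left out. In the probe annotation 13513 of the 22746 tested had 1 gene, 503 several and 8730 none. Symbols came by gene ID from a RefSeq table (TAIR10.1; 13436 matched). Genome positions are left out because the probes' build is not stated.

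Groups were taken from titles and characteristics. limma 3.58.1 in R 4.3.3 fitted 1 mean per group over 24 arrays (12 residual degrees of freedom, prior degrees of freedom 3.11). Tests were two-sided, adjusted over all probe sets within each comparison at 0.05. An exact permutation test of 2 against 2 arrays cannot go below p = 0.333, and none was used. Detection calls were not used here, so changes at low levels are differences of signals. The number of arrays limits precision.

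The genes named are the 12 largest rises and 12 largest falls among passing single-gene probe sets with groups apart. To these come the 5 smallest p-values among single-gene probe sets of each difference from other genotypes. Up to 4 members of each list by smallest p were also named. Further list members named were chosen after their values were seen. The members and the 38 gene lists were chosen with earlier results of these data known. Of 1661 list entries, 308 had a single-gene probe set, and 27 lists had at least 3. 2 symbols that matched another gene were left out of the lists. In simulated data 200 of 22746 probe sets were changed. The fit for salt in M6PR found 44% of those changed by 1 log2 unit and 93% of those changed by 2. Of its 144 calls 7 were false. The simulated noise was independent between arrays, with 1 SD per probe set in all groups. In the data the replicates of M6PR_100mM differed more than those of M6PR_0mM, so these shares may be too high for this comparison. Alternatives covered scaling, a filter on dim probe sets, array weights, a replicate block, the variance prior, separate fits and leaving out arrays.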

Additional observations from a re-analysis of the deposited data

Results flagged for a closer look

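Of the named genes, 43 had a salt change in M6PR that differed from that in Col by the test of the difference itself (limma, adjusted p under 0.05). Some of these, with WRKY22, AT5G58090, AT2G16660, AT1G32920 and AT3G15310 among them, were named for a small p in this difference, so their passing is no independent finding. Among the named rises, falls and differences, the log2 difference, M6PR change minus Col change, was above 0 for AT1G60590 (3.59), AT1G68570 (2.9), AT5G59350 (2.54), AT4G01460 (1.83), AT3G15310 (1.66) and BETA-VPE (1.1). It was below 0 for WRKY22 (-4.05), AT1G32920 (-3.99), AT3G23550 (-3.21), AT5G58090 (-2.35), AT2G16660 (-2.34), AT5G54720 (-2.22), ATL8 (-2.08), AT5G25440 (-1.82), MCCA (-1.67), AT5G62865 (-1.52), AT1G04200 (-1.48) and AT2G44670 (-1.04). Among the list members it was above 0 for AT4G14090 (3.83), TBL26 (3.44), EXPA8 (3.33), UF3GT (3.23), UGT78D2 (2.81), GH9C2 (2.55), APL3 (1.89), CHX20 (1.66), XTH32 (1.49), QQS (1.27), GSTU18 (1.05) and LHCB4.3 (1.05). It was below 0 for AT3G15630 (-6.17), LCR69 (-4.47), STZ (-4.2), XTH18 (-3.99), AT4G22470 (-3.84), LTI30 (-3.09), ATG8E (-3.03), AT4G12490 (-2.86), AT4G12500 (-2.56), AKINBETA1 (-2.5), CML23 (-1.92), CML37 (-1.3) and CCS (-1.13). Without the 2 salted arrays low in dap, a setting chosen after seeing the data, 22 of the 43 passed. The difference of AT2G44670 was then -0.72 (adjusted p = 0.22) and that of BETA-VPE 1.05 (adjusted p = 0.09). Without replicate 1 of M6PR_100mM 11 of the 43 passed, without replicate 2 of it 43, and without replicate 1 or replicate 2 of M6PR_0mM 24 and 13. Groups of 2 arrays are too small for a test of single arrays.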

How the results depend on the processing

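Leaving out 1 M6PR array at a time gave 11 to 375 probe sets for salt in M6PR (123 with all arrays), 150 to 3860 for the difference from Col (1382), 0 to 1923 for that from the 3 wild types (313) and 0 to 901 for that from the 5 other genotypes (75); each such fit has fewer arrays, and the cause was not tested. Salt in M6PR gave 0 in a fit of its 4 arrays alone (1960 at an unadjusted p of 0.05), a fit with 2 residual degrees of freedom. Array weights gave 2358, 733 and 147 for the 3 differences. The weights were equal for the 2 replicates of each group (0.432 for both M6PR_100mM arrays, 1.5 for both M6PR_0mM arrays). They therefore left the group means as they were and could not weigh 1 replicate below the other. Leaving out the 2 arrays low in dap gave 367 from Col and 127 from the wild types, and leaving out the dimmest 40% of probe sets gave 489 from the wild types. The other runs on scaling, dim probe sets, weights, the variance prior and separate fits kept each count within 1.5 times. A like count is not the same calls: of the 123, 56 passed again in the fit of the 8 Col-background arrays, 77 with the block, 82 with array weights, and 11 to 92 without 1 array. With a replicate block within each background the counts were 85 for salt in M6PR, 1515 from Col, 285 from the wild types and 34 from the 5 other genotypes. Replicate differences at 100 and 0 mM had a correlation of 0.55 across probe sets, but the labels do not pair the pots. Of 1239 alternative values of named genes, 0 changed sign with a call, 106 lost their call and 4 gained one; 15 of 350 alternative medians of lists moved by more than the spread between replicates.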
